A study of Homo sapiens with 8 samples.

Results

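Retinoid genes were examined in A673 and SK-ES1, 2 established lines of Ewing sarcoma, a tumour of bone and soft tissue in the young. Cells expressed either shRING1B, a hairpin RNA that targets RING1B, or shGFP, which targets a protein human cells lack and served as control. RING1B is the ubiquitin ligase of Polycomb repressive complex 1, and the series title ties it to EWSR1-FLI1, the fusion transcription factor of this tumour. Expression was measured on 8 microarrays, 2 for each of the 4 combinations of line and hairpin, and no drug, retinoid treatment or time point is named in the labels. The set was chosen from a list of 9 genes of retinoid metabolism, binding and reception, DHRS3, CYP26A1, CYP26B1, ALDH1A1, ALDH1A2, ALDH1A3, RARB, CRABP1 and CRABP2, as those with a named probe set. DHRS3 and CRABP2, 2 of the 9 and 2 of 14884 genes measured in all, met this rule, and the other 7 were not analysed here. Where a gene has several probe sets the brightest on average is taken, but DHRS3 and CRABP2 each had 1 named probe set, so nothing was chosen by level. DHRS3 gave the set its name after its higher level under shRING1B in A673 had been seen, so every difference that contains its A673 values is given as a description, with no test.

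Retinol is carried into cells and oxidised in steps, first to retinal and then by ALDH1A enzymes to retinoic acid. Retinoic acid is bound in the cell by CRABP proteins, broken down by CYP26 enzymes, and acts through RAR receptors such as RARB, which bind DNA at paired copies of a short motif. DHRS3 reduces retinal back to retinol and so works against retinoic acid formation, while CRABP2 is known for handing retinoic acid to RAR in the nucleus. DHRS3, CYP26A1, RARB and CRABP2 are all known to be induced by retinoic acid in many cell types, and retinoids drive neural differentiation in several tumour models.

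The receptors bind hexamers of the form AGGTCA or GGGTCA or AGTTCA or GGTTCA, which were searched on both strands in the RefSeq start windows of all genes (GRCh38.p14, 250 bases before to 50 bases after each annotated start). The windows below are shown because they set the lone hexamers near DHRS3 and CRABP2, the genes measured here, beside the paired hexamers of CYP26A1 and RARB. Each window is 30 bases long and reads 5′ to 3′ on the strand of the gene, with the hexamers in capitals. A hexamer on the opposite strand appears as its reverse complement.
DHRS3, chr1:12616944-12616973, minus strand: tcttttttggcaGGTTCAgagttgatccgc
DHRS3, chr1:12596767-12596796, minus strand: ttcttgcactttTGACCTtccccacaccag
CRABP2, chr1:156706005-156706034, minus strand: gGGTTCAatggagctagggccagctacggc
CYP26A1, chr10:93073796-93073825, plus strand: ttaaagaTGAACTttgggTGAACTaattgt
RARB, chr3:25428203-25428232, plus strand: cgggtagGGTTCAccgaaAGTTCActcgca

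In DHRS3, 1 hexamer lay in each of these windows and 0 in the window of its remaining RefSeq start. CRABP2 had 1 hexamer, 249 to 244 bases before its start. A direct repeat of hexamers with a spacer of 5 bases, the classical response element, was found for CYP26A1 (90 to 74 bases before a start) and RARB (53 to 37 bases before a start), and in 0 windows of DHRS3 or CRABP2. Of 35116 start windows of 300 bases, 13548 (38.58%) held at least 1 hexamer and 31 (0.088%) held such a repeat. Repeats with other spacers and sequence outside these windows were not searched, so other elements near DHRS3 or CRABP2 may have been missed. A match is a description of letters, and no binding was measured here.

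The deposited values are log2 expression values after RMA, which normalizes the arrays to a common distribution. Array medians over all probe sets lay between 4.01 and 4.10, and no 2 arrays were identical. Correlations across genes were 0.991 to 0.994 between arrays of a group, 0.983 to 0.992 between hairpins of a line and 0.935 to 0.940 between lines. The first 2 ranges overlapped. The labelled cell type was checked on the Ewing sarcoma markers with a named probe set (CD99, NKX2-2, STEAP1, CCND1, BCL11B and GLCE), all 6 of which lay between 7.34 and 12.3 on every array. The endothelial and epithelial markers PECAM1, KDR, EPCAM and KRT5 lay between 3.02 and 4.92, and leukocyte markers were not analysed here. The gene of RING1B itself was not analysed here, so the extent of its depletion in each line is unknown. Nothing in the labels says that the 2 arrays of a group came from separate cultures, so the p-values measure only how far these arrays scatter, and that scatter may be technical. In bulk RNA, fewer cells with a transcript and less of it per cell cannot be told apart, and a change shared by most genes would be hidden by the common distribution.

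DHRS3 was higher with the RING1B hairpin in A673 and lay at a low, similar level on all SK-ES1 arrays. Its log2 level was 5.47 and 5.49 on the A673 shGFP arrays and 6.28 and 6.58 on the A673 shRING1B arrays. The SK-ES1 arrays read 4.61 and 4.46 with the control hairpin and 4.42 and 4.55 with shRING1B. The A673 hairpin groups did not overlap, while the SK-ES1 arrays of either hairpin overlapped and all 4 lay below every A673 array.

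The group means of DHRS3 in A673 were 5.48 ± 0.018 under shGFP and 6.43 ± 0.214 under shRING1B (SD, n = 2), a log2 difference of 0.95 or 1.94-fold. Of 14884 genes, 7 had a log2 change in A673 at least this high, DHRS3 included. DHRS3 was chosen for this change, so its rank describes the choice and is no evidence. In SK-ES1, which the choice of DHRS3 did not use, the log2 change was -0.06 (standard error 0.132; 95% interval -0.351 to 0.239; limma adjusted p = 0.965). The standard error, interval and p-value rest on a spread shared over the 4 groups, A673 included. All SK-ES1 arrays lay within the range of the endothelial and epithelial markers (3.02 to 4.92), so a fall may not have shown. The effect in SK-ES1 minus that in A673 was -1.01 and is given without a test, because it contains the A673 values.

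**Figure D1:**
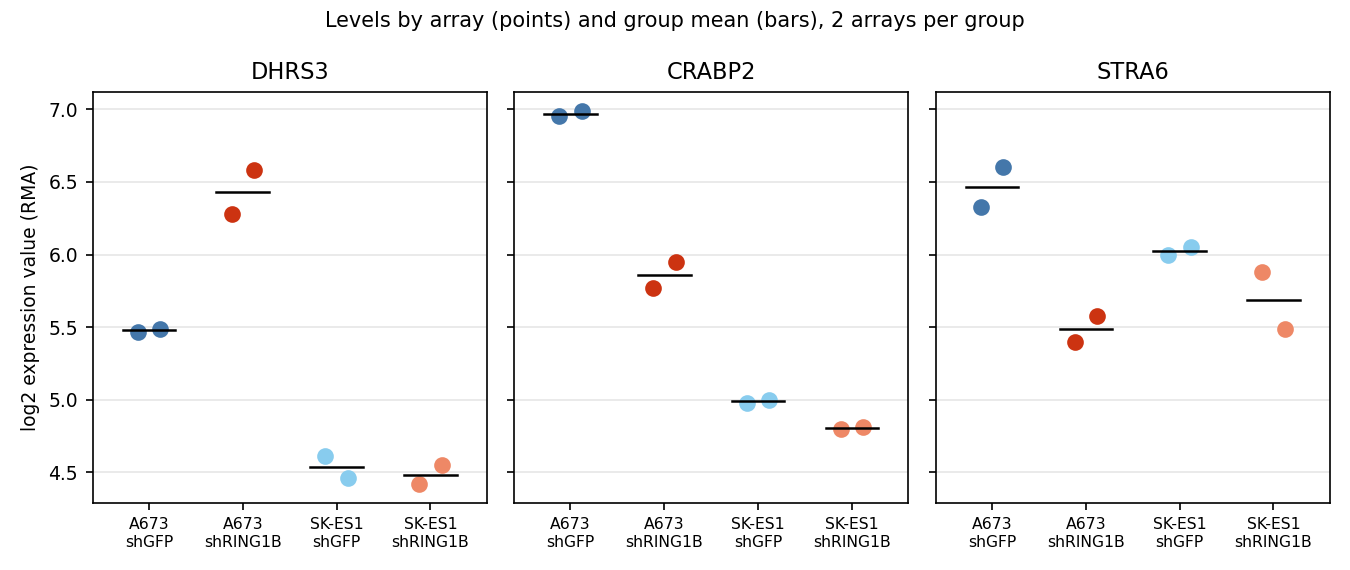
Log2 expression of DHRS3, CRABP2 and STRA6 on each array (points) with the group mean (bars), for 2 lines and 2 hairpins with 2 arrays per group. DHRS3 runs from 5.48 to 6.43 between the A673 group means while CRABP2 runs from 6.97 to 5.86 and STRA6 from 6.47 to 5.49.

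CRABP2 moved the other way in A673. Its log2 level was 6.95 and 6.99 on the A673 shGFP arrays and 5.77 and 5.95 on the A673 shRING1B arrays, with no overlap. Under shRING1B the A673 arrays still lay above every SK-ES1 array, where CRABP2 read 4.98 and 5.0 with the control hairpin and 4.80 and 4.81 with shRING1B.

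CRABP2 fell in A673 from 6.97 ± 0.0288 to 5.86 ± 0.13 (SD, n = 2). The log2 change was -1.11 (standard error 0.113), with a 95% interval of -1.36 to -0.861 and a limma adjusted p of 0.00102. This was the 86th lowest change of 14884 genes, a drop of 2.16-fold. In this comparison limma called 3.74% of all genes at an adjusted p under 0.05, and 3.04% as lower. CRABP2 was called in each of 15 alternative analyses, with an adjusted p between 6.65e-05 and 0.0168.

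In SK-ES1 the CRABP2 arrays of the hairpins also did not overlap, but the difference was small. CRABP2 went from 4.99 ± 0.0128 under shGFP to 4.81 ± 0.0109 under shRING1B (SD, n = 2). The log2 change was -0.18 (95% interval -0.432 to 0.0719, limma adjusted p = 0.811). The interval and p-value rest on a spread shared over the 4 groups. These levels lay in or next to the range of the endothelial and epithelial markers, which reached 4.92. Signal over background was not measured, so a larger fall may not have shown. Limma called 0.0672% of all genes in SK-ES1, and DHRS3 and CRABP2 were not among them. At an unadjusted p under 0.05, 0 of the 2 passed, beside 7.36% of all genes.

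The CRABP2 effect differed between the lines by 0.93 (SK-ES1 minus A673, standard error 0.16, limma adjusted p = 0.0361). In that comparison 0.786% of genes were called, 0.625% as higher. The low SK-ES1 level may make this difference too large, which was not tested. The CRABP2 call depended on the arrays used. With 1 A673 array left out, the adjusted p became 0.0812 (shGFP replicate 1), 0.163 (shGFP replicate 2) or 0.0835 (shRING1B replicate 1), and the call was kept without shRING1B replicate 2. Without 1 SK-ES1 array it was 0.129 (shGFP replicate 1), 0.114 (shGFP replicate 2), 0.126 (shRING1B replicate 1) or 0.119 (shRING1B replicate 2). It was 0.102 when adjusted over every probe set, and its range over 14 alternatives was 0.0142 to 0.163, while the log2 value itself stayed between 0.84 and 1.03.

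**Figure D2:**
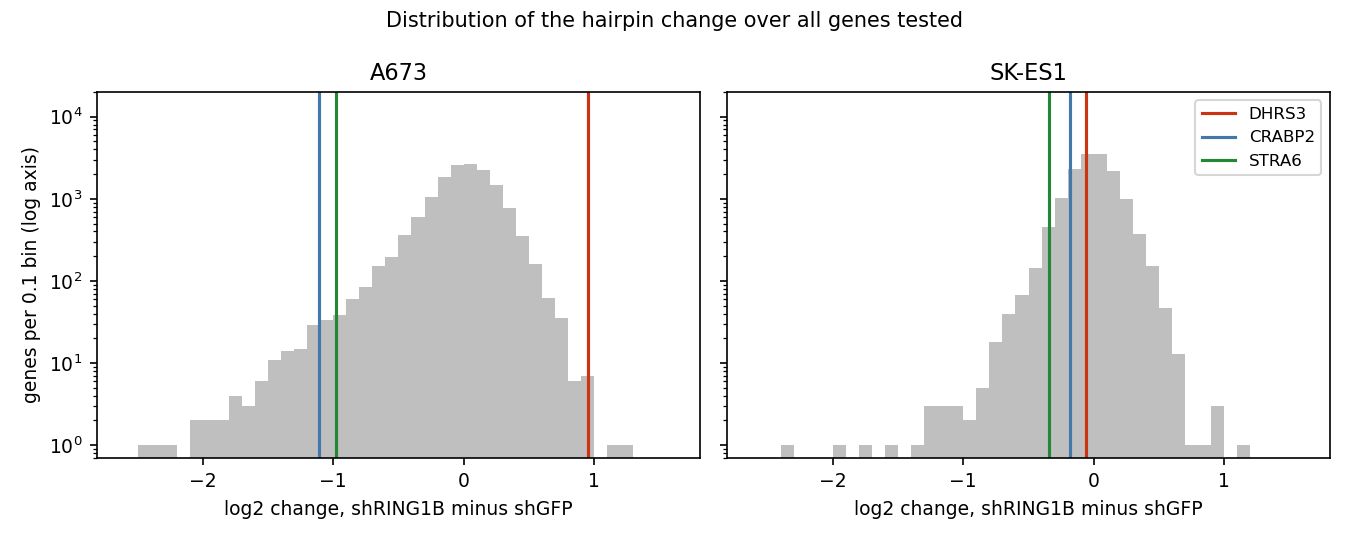
Number of genes per bin of log2 change (shRING1B minus shGFP) in each line, on a logarithmic vertical axis, with vertical lines at DHRS3, CRABP2 and STRA6. In A673 the lines stand at 0.95, -1.11 and -0.98, and in SK-ES1 they stand at -0.06, -0.18 and -0.34. DHRS3 was chosen for its A673 change, so its place there follows from the choice.

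The other genes of the pathway were taken from a list of 53 carriers, enzymes, receptors and co-regulators, of which 21 had a named probe set. The 5 other RAR and RXR receptors on that list were not analysed here. In A673, 1 of the 21 was called lower and 0 were called higher, beside 3.04% and 0.705% of all genes. The median log2 change was -0.04, against 0.01 over all genes.

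The gene called lower was STRA6, the cell-surface receptor that takes up retinol from its plasma carrier, and it is itself a known retinoic acid target. STRA6 was 6.33 and 6.6 on the A673 shGFP arrays and 5.4 and 5.58 on the shRING1B arrays, without overlap. The log2 change, -0.98, had a standard error of 0.155 and passed (limma adjusted p = 0.00924). The call was lost without A673 shGFP replicate 2 (adjusted p = 0.115) or A673 shRING1B replicate 1 (0.0571), with a range of 0.000772 to 0.115 over 15 alternatives. On the SK-ES1 arrays STRA6 stood at 6.0 and 6.05 with shGFP and at 5.88 and 5.49 with shRING1B, a log2 change of -0.34 (limma adjusted p = 0.687). The difference of the STRA6 effects between lines, 0.64, did not pass (adjusted p = 0.244).

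Of the enzymes that act on retinol and retinal, 8 oxidoreductases were measured. None of the 8 passed limma's test in A673, beside 3.74% of all genes. At an unadjusted p under 0.05, 1 of the 8 passed, beside 18.9% of all genes. The 1 that passed was RDH10, the main retinol dehydrogenase of embryonic retinoic acid synthesis, which is known to form a complex with DHRS3. In A673, RDH10 stood at 5.97 and 6.14 with shGFP and at 5.5 and 5.48 with shRING1B. Its log2 change was -0.57 (limma adjusted p = 0.0749). Its adjusted p was 0.0397 with a trended, robust variance and 0.0459 without dim genes. DHRS4, which also reduces retinal, had a log2 change of 0.24 (adjusted p = 0.467), and RDH11 one of -0.05 (0.869).

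Among the ester-forming enzymes, LRAT, the main retinol acyltransferase, had a log2 change of -0.45 in A673 (limma adjusted p = 0.106) and DGAT1, which can also esterify retinol, one of 0.35 (0.127). LRAT stood at 3.68 and 3.71 under shGFP, below the array medians. FABP5, which carries retinoic acid to another nuclear receptor, had a change of -0.29 in A673 and 0.32 in SK-ES1, neither of which passed (adjusted p = 0.301 and 0.666). The co-regulator NRIP1, a repressor that retinoic acid induces, had a change of -0.47 (adjusted p = 0.089). With the mean of its probe sets in place of the brightest it was -0.29. Across the 21 genes, 7 had an unadjusted p under 0.05 in A673, beside 18.9% of all genes.

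In SK-ES1, 0 of the 21 were called by limma and 2 had an unadjusted p under 0.05, beside 0.0672% and 7.36% of all genes. Their median change was -0.09. For the difference between the lines 0 of the 21 were called and 6 had an unadjusted p under 0.05, beside 0.786% and 13.7% of all genes. A further list held 29 genes known to respond to retinoic acid, of which 16 had a named probe set and STRA6, NRIP1 and LRAT are on both lists. Of the 16, STRA6 alone was called by limma in A673, and 5 had an unadjusted p under 0.05, beside 3.74% and 18.9% of all genes. HOXB4 read 4.26 and 4.2 on the A673 shGFP arrays and 4.38 and 4.94 on the A673 shRING1B arrays. These levels lay in or next to the range of the endothelial and epithelial markers (3.02 to 4.92) and may be background. The log2 change of HOXB4 stood at 0.43 (adjusted p = 0.193). Without A673 shRING1B replicate 1 it was 0.71 and passed (adjusted p = 0.0414) while STRA6 did not, and without A673 shRING1B replicate 2 it was 0.15. MEIS2 stood at -0.37 (0.225), or -0.19 with the mean of its probe sets, and the retinoid-induced RARRES1 at 0.12 (0.769). RARRES1 was 2.80 under shGFP and 2.92 under shRING1B in A673, below the array medians, so its level may be background. The median log2 change of the 16 was -0.05 in A673 and 0.00 in SK-ES1. In SK-ES1, 0 of the 16 were called and 0 had an unadjusted p under 0.05, beside 0.0672% and 7.36% of all genes. For the difference between lines 0 of the 16 were called and 1 had an unadjusted p under 0.05, beside 0.786% and 13.7% of all genes.

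**Figure D3:**
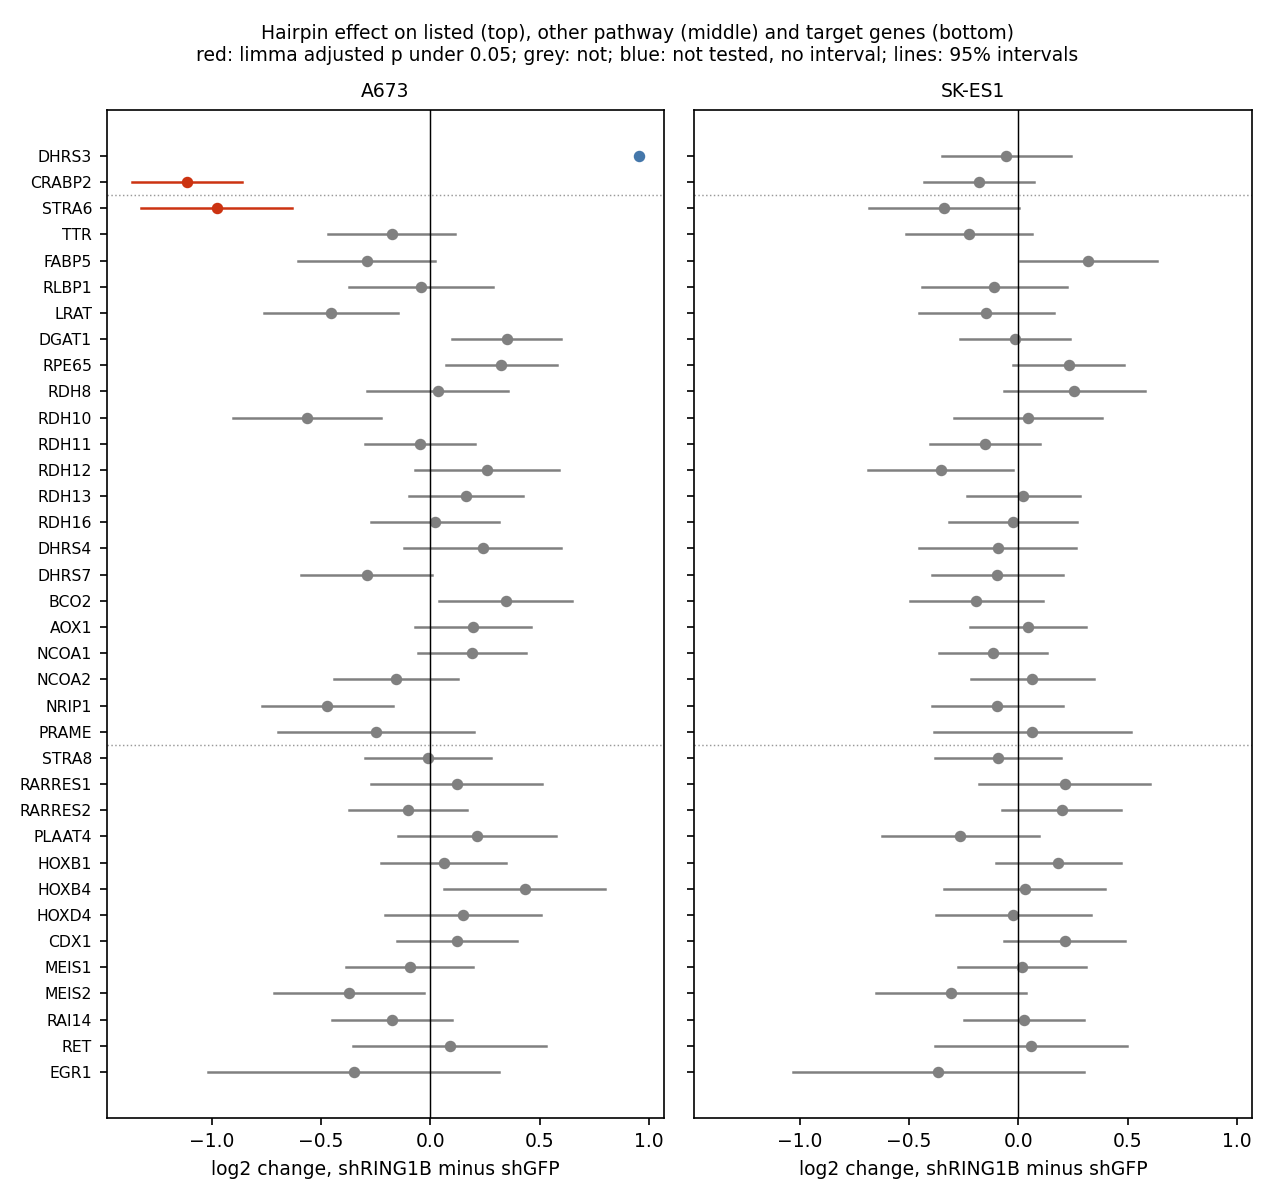
Log2 change between hairpins in A673 and SK-ES1 for DHRS3 and CRABP2 (top), the 21 other pathway genes (middle) and the retinoic acid targets not shown above (bottom), with 95% intervals. Red marks a limma adjusted p under 0.05, grey a gene that did not pass, and blue DHRS3 in A673, which was not tested. CRABP2 and STRA6 are the red points, both in A673.

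Under the control hairpin, DHRS3 and CRABP2 were lower in SK-ES1 than in A673. This comparison shares the A673 shGFP arrays with the hairpin comparison above. DHRS3 was 5.48 in A673 and 4.54 in SK-ES1, a log2 difference of -0.94 or 1.92-fold, with no test because it contains the A673 shGFP values, and no array of one line overlapped the other. CRABP2 was 6.97 and 4.99, a difference of -1.99 (standard error 0.113; limma adjusted p = 6.56e-07), or 3.96-fold. The lines differed at 30.7% of all genes, and 17% were lower in SK-ES1. The CRABP2 call held in each of 15 alternatives, with an adjusted p of at most 2.17e-05. On the SK-ES1 arrays DHRS3 and CRABP2 lay in or next to the range of the endothelial and epithelial markers, which reached 4.92. Signal over background was not measured, so both folds may be too small.

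From highest to lowest group mean, DHRS3 was ordered A673 shRING1B, A673 shGFP, SK-ES1 shGFP and SK-ES1 shRING1B, and the last 2 overlapped. The order of CRABP2 was A673 shGFP, A673 shRING1B, SK-ES1 shGFP and SK-ES1 shRING1B. The last 2 did not overlap, but their difference did not pass limma's test. The A673 line had more of both transcripts under either hairpin on the arrays, and the hairpin difference within A673 had opposite signs for the 2 genes.

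Of the 21 other pathway genes, 4 were called higher and 5 lower in SK-ES1 under shGFP, beside 13.7% and 17% of all genes. PRAME, a cancer-testis antigen known to repress RAR signalling, was 3.67 and 3.76 in A673 and 7.67 and 7.55 in SK-ES1, a difference of 3.89 (limma adjusted p = 3.47e-07). Its A673 levels lay within the range of the endothelial and epithelial markers, so the size of this difference is uncertain and may be too small. The difference of NRIP1 was -1.45 (adjusted p = 2.23e-05) and that of the coactivator NCOA2 -1.29 (3.31e-05). With the mean of its probe sets NRIP1 differed by -0.84 (adjusted p = 0.000362). RDH10 was 5.97 and 6.14 in A673 and 4.71 and 5.13 in SK-ES1, a difference of -1.14 (adjusted p = 0.000281). LRAT differed in the other direction, by 1.01 (limma adjusted p = 0.00031). It was 3.69 in A673 and 4.71 in SK-ES1, within the range of the endothelial and epithelial markers (3.02 to 4.92). The remaining calls were DHRS7 (0.73) and DHRS4 (0.64), higher, and NCOA1 (-1.03) and DGAT1 (-0.84), lower. DHRS4 lost its call without A673 shGFP replicate 1 (adjusted p = 0.101) or SK-ES1 shGFP replicate 1 (0.106).

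STRA6, which fell with CRABP2 in A673, was 6.33 and 6.6 in A673 and 6.0 and 6.05 in SK-ES1 under shGFP, a difference of -0.44 that did not pass (limma adjusted p = 0.0548). It passed in 5 of 15 alternatives, at 0.0307 at the lowest. Of the 16 retinoic acid targets, 2 were called higher and 6 lower in SK-ES1, again beside 13.7% and 17% of all genes. The largest differences were RET (-2.19), a receptor kinase of neural crest cells, and RAI14 (-2.12), with a limma adjusted p of 1.81e-05 and 7.3e-07. In SK-ES1 under shGFP, RET was 4.31 and RAI14 3.53, within the range of the endothelial and epithelial markers. The size of both differences is therefore uncertain and may be too small. NRIP1 was among the targets too, and the immediate early factor EGR1 differed by -1.15 (adjusted p = 0.0144). EGR1 lost its call without A673 shGFP replicate 2, where the difference was -0.66 (adjusted p = 0.114), or without SK-ES1 shGFP replicate 1, where it was -0.86 (0.116). The remaining calls were MEIS1 (-1.06), LRAT, and the small differences of PLAAT4 (0.49) and HOXB1 (-0.38). PLAAT4 and HOXB1 lost their calls in 9 and 7 of the alternatives, without A673 shGFP replicate 1 among others. Under shGFP, PLAAT4 was 3.55 in A673 and 4.04 in SK-ES1, and HOXB1 was 4.32 and 3.94. Both lay within the range of the endothelial and epithelial markers (3.02 to 4.92), so their levels may be background.

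**Figure D4:**
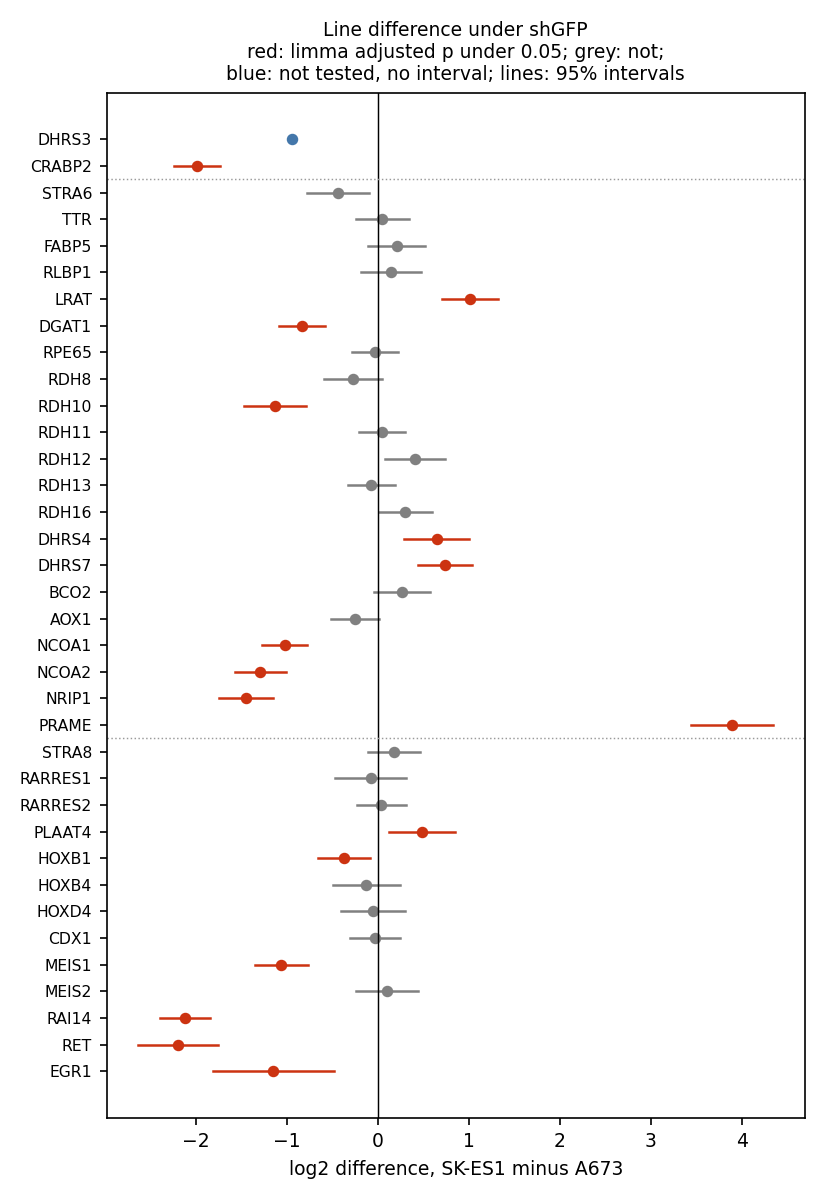
Log2 difference between the lines under shGFP (SK-ES1 minus A673) for the same genes, with 95% intervals, where red marks a limma adjusted p under 0.05, grey a gene that did not pass, and blue DHRS3, which was not tested. DHRS3 (-0.94) and CRABP2 (-1.99) lie to the left of 0, and PRAME (3.89) is the point farthest to the right.

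The pattern of DHRS3 over the 8 arrays was also set against that of every other protein-coding gene. Each log2 profile was centred on its own mean, and likeness was measured as the root mean square difference between profiles, as a description with no test. Of 11915 genes, the nearest were NTSR1 (0.128), the neurotensin receptor, AMER2 (0.132), a regulator of Wnt signalling, FERMT3 (0.14), an integrin activator, LMO7 (0.147) and INAFM1 (0.168). The median over all these genes was 0.82, and the value for CRABP2 was 0.735. NTSR1 had log2 changes of 0.72 in A673 and -0.08 in SK-ES1 and a line difference of -1.0, beside 0.95, -0.06 and -0.94 for DHRS3. The A673 changes of the 5 genes, from 0.67 to 0.76, were all smaller than that of DHRS3. The 5 genes were picked for likeness to DHRS3, and DHRS3 for its high A673 change. Neither the match nor the smaller size is therefore evidence of a link.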

How the data were processed

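The authors deposited 1 log2 value for each probe set and array. The submitters' processing notes name RMA and limma, without versions. Scanner files were not used, so signal over background is unknown, and precision is limited by the number of arrays. Of 48144 probe sets, 16098 had 1 gene symbol in the platform annotation, 0 had several and 32046 were unnamed here. Each of 14884 genes was represented by its probe set of highest average level.

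Arrays were grouped by line and hairpin, and replicate numbers follow accession order and only name an array. A model of 4 group means was fitted to all genes with limma 3.58.1 in R 4.3.3 (4 residual and 6 prior degrees of freedom). P-values are two-sided, Benjamini-Hochberg adjusted over all genes, and called under 0.05. The fit was tested on simulated data. The members, lists and tests were chosen with earlier results of these data known. Named genes are the members, called genes of the lists and the 5 nearest to DHRS3. A planned limit of 4 called genes per comparison was not kept for the line difference, where all called genes of the lists are named. Other named genes were chosen after their values were seen. Promoter windows are from RefSeq (GRCh38.p14). All 9 listed genes matched there by symbol. Alternatives were repeated quantile normalization, cyclic loess, a trended robust variance, only the groups compared, the mean of a gene's probe sets, each probe set on its own, no dim genes (mean at or below the median of all probe sets), and each array left out.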

Additional observations from a re-analysis of the deposited data

Results flagged for a closer look

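CRABP2 stood out because its hairpin effect differed between the lines in a test of the difference itself. The difference was 0.93 on the log2 scale (SK-ES1 minus A673, limma adjusted p = 0.0361). Both A673 shRING1B arrays lay below both shGFP arrays, with a smaller shift the same way in SK-ES1. Under shGFP, CRABP2 was 4.99 in SK-ES1, next to the endothelial and epithelial markers, which reached 4.92. Signal over background was not measured, so the SK-ES1 shift may be too small and the difference too large. The call was lost in 8 of 14 alternatives, 7 of which left out 1 array, at an adjusted p of 0.0812 to 0.163.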

How the results depend on the processing

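No paired analysis was possible because the labels give no replicate numbers. The A673 fall and the line difference of CRABP2 kept their direction and call in each of 15 alternatives, and the untested line difference of DHRS3 kept its direction. The A673 change of DHRS3 ranged from 0.80 to 1.10. Its difference between lines, -1.01, ranged from -1.16 to -0.86 with 1 array left out. The CRABP2 difference between lines was 0.93 with each probe set on its own, where it lost its call and 0 of the listed genes were called, as it did in 7 of the 8 fits without 1 array. It ranged from 0.84 to 1.03 with 1 array left out, and the count from 0 to 1. The 1 pathway gene called in A673 became 4 with a trended robust variance (STRA6, DGAT1, RDH10 and NRIP1), 2 without dim genes, and 0 to 1 with 1 array left out. The 1 target became 2 with that variance and 0 to 1 with 1 array left out. The 8 targets that differed between lines were 5 to 9 with 1 array left out, the lowest without A673 shGFP replicate 2 or SK-ES1 shGFP replicate 1. In such fits the lone array of a group is assumed to vary like the others. Counts over all genes ranged over the alternatives from 101 (without A673 shGFP replicate 2) to 1052 in A673, from 2 (without SK-ES1 shGFP replicate 1) to 34 in SK-ES1, and from 0 (without SK-ES1 shRING1B replicate 1) to 281 for the difference between lines, against 557, 10 and 117. The cause of these shifts was not tested. Neither scaling moved the median of all genes by over 0.1. Signal over background was not measured, so levels near the array medians are uncertain.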
